A study of Mus musculus with 15 samples.

Results

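The genes described here encode the enzymes that add methyl groups to histones or remove them, the ATP-driven machines that move nucleosomes, and the ARID proteins, several of which are subunits of those machines. The rule goes by symbol: gene symbols beginning with Kmt, Kdm, Setd, Chd, Smarc or Arid, followed by a digit or a letter from a to e. Of 74 such rows, 3 ending in Rik, os or -ps were left out, which gave 71 genes among the 53278 rows of the count table. Of these, 70 passed the filter on low counts, and 67 stood at 1 CPM (a count scaled to the library total) or more in every library. The 1 gene that was not tested, Smarce1-ps1, is annotated as a pseudogene, as is Kdm4dl, a near copy of Kdm4d.

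Bulk RNA was sequenced from the brain cortex of 15 male C57BL/6J mice, aged 10 to 20 weeks, in 3 groups of 5 animals with 1 library each. Control mice ate control food throughout. PLX3397 mice ate food containing PLX3397, an inhibitor of CSF1R, the kinase on which microglia depend, and of the related kinases KIT and FLT3, for 9 days. Repopulation mice ate the same drug food for 9 days and were then kept on control food for a further 9 days. Totals lay between 23413551 and 48617851 counts, the deepest library being that of control mouse 1. The summed level of 9 microglial markers was 273 to 304 CPM in control, 14.1 to 18.2 CPM under PLX3397 and 303 to 335 CPM after repopulation, and no marker was at 0 throughout a group. Markers of oligodendrocyte precursors moved the same way: 6 markers summed to 163 to 181, 93.1 to 122 and 168 to 188 CPM, and 4 of the 6 were lower under PLX3397. Under PLX3397, 4 of 6 endothelial markers were also lower than in control, their summed levels being 187 to 207, 160 to 189 and 192 to 205 CPM in the 3 groups. In contrast, 5 of 7 oligodendrocyte markers were higher, with sums of 5026 to 5275, 5323 to 6472 and 4532 to 5422 CPM. Markers of excitatory neurons were abundant in every library, at 5654 to 6966 CPM, whereas those of choroid plexus ran from 8.53 to 549 CPM. In bulk tissue, fewer cells of a type and less RNA per cell cannot be told apart.

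Methylation of lysines on the tails of histones H3 and H4 marks the state of the underlying DNA. Trimethylated H3K4 lies at active promoters and monomethylated H3K4 at enhancers, H3K36 methylation follows elongating RNA polymerase, H3K27 and H3K9 methylation accompany silencing, and H4K20 methylation bears on chromosome compaction and replication. Demethylases of the LSD1 and JmjC families erase these marks, while CHD, ISWI and SWI/SNF remodellers slide, evict or space nucleosomes. Neurons and glia express nearly all of these genes, and loss of a single copy of many of them causes neurodevelopmental disorders. Their transcripts also tend to be long, and length-adjusted values are given beside the calls.

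In control cortex the level per kilobase of exon (RPKM, from the union of all annotated exons) had a median of 6.02 over the 70 tested genes and ran from 0.165 for Arid3c to 75.5 for Chd3. Chd3, a helicase of the nucleosome remodelling and deacetylase (NuRD) complex, was highest, at 75.5 ± 2.41 RPKM (SD, n = 5 mice). Smarcc2, the BAF170 scaffold of the SWI/SNF complex, followed at 61.9 ± 2.19 RPKM, and Smarcd1, another SWI/SNF subunit, stood at 44.5 ± 1.64 RPKM. Chd5, a neuronal NuRD helicase, reached 40.8 ± 2.59 RPKM. The spreads of Smarcd1 and Chd5 touch, whereas the first 3 levels are separated by more than their SDs. At the other end stood the transcripts of Kdm4d, a demethylase known from testis, at 0.394 ± 0.142 RPKM, and of Kdm4dl at 0.313 ± 0.118 RPKM. Reads of Kdm4d and Kdm4dl may be split between these near copies, and their order lies within the spread.

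Changes were modest in size and mostly upward. Under PLX3397, 13 of the 70 genes were higher and 5 lower than in control (edgeR quasi-likelihood test, adjusted p under 0.05). Over all 18369 tested genes 8.19% were called higher and 8.35% lower, so that the share called higher was 18.6% among the chromatin genes and the share called lower 7.14%. From PLX3397 to repopulation 20 genes rose (28.6%, against 7.61% of all genes) and 0 fell, against 8.98% of all genes. With 1 library left out at a time this last count reached at most 1. Between repopulation and control 33 genes were higher (47.1%, against 13.9%) and 4 lower (5.71%, against 15.2%). The median log2 fold change of the 70 genes was 0.017, 0.072 and 0.112 in the order given, where the median of all tested genes was -0.002, 0.001 and 0.007. The 3 comparisons share groups of mice and are not independent of each other.

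The counts rested in part on single libraries. Without PLX3397 mouse 5, the PLX3397 comparison gave 8 higher and 8 lower genes. Of all 18569 genes tested in that fit, 1155 were higher and 1263 lower, against 1505 and 1533 of 18369 with every library. From PLX3397 to repopulation, 12 genes rose without PLX3397 mouse 2, 12 without PLX3397 mouse 4 and 13 without repopulation mouse 1, and without PLX3397 mouse 2 a single gene, 1 in all, fell. Over all tested genes, 1082, 1083 and 1162 rose in these fits, against 1398 with every library. Between repopulation and control the count of higher genes stayed between 26 and 33 whichever library was left out. Over all tested genes, 2079 to 2563 were higher in these fits, against 2548 with every library. Groups whose 5 mice did not overlap the other 5 were found for 7 higher and 5 lower genes under PLX3397 (4.99% and 5.38% of all tested genes), for 11 higher and 2 lower from PLX3397 to repopulation (5.57% and 6.24%) and for 25 higher and 2 lower between repopulation and control (10.5% and 11.8%).

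**Figure D1:**
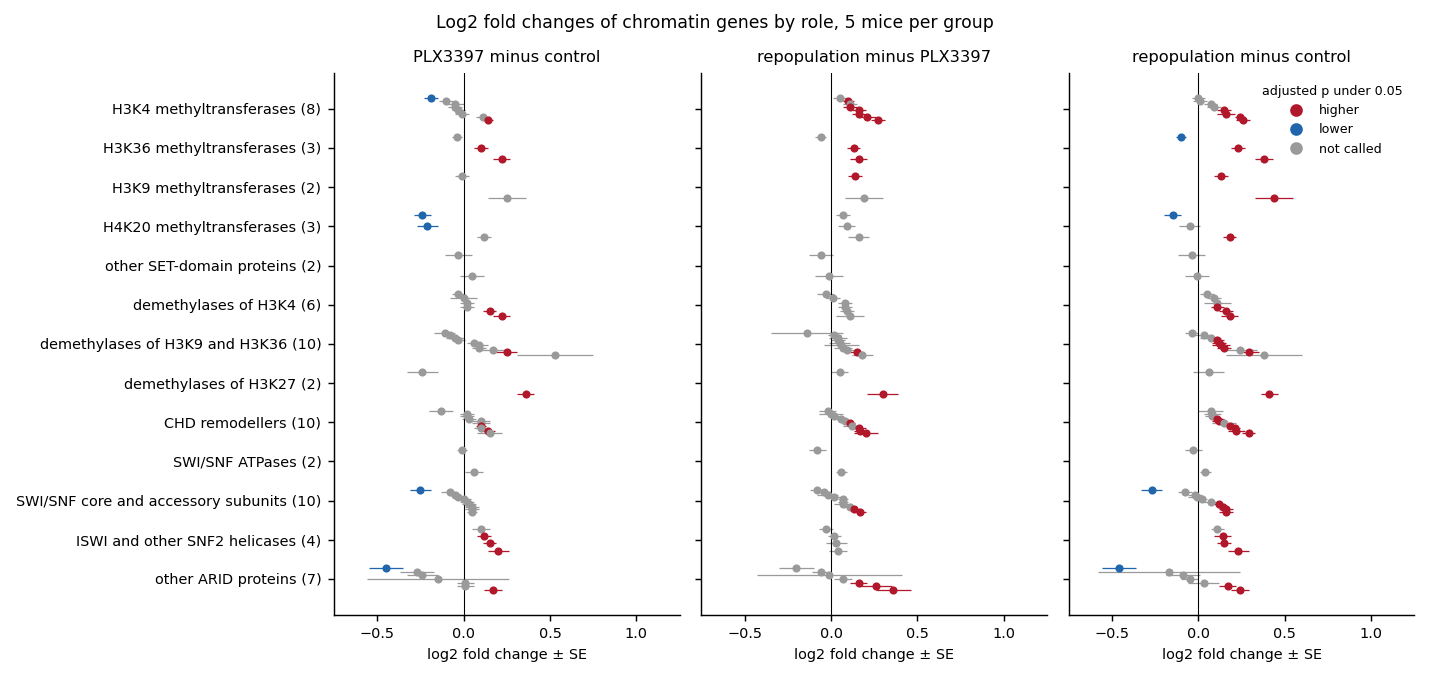
Log2 fold change with its standard error (horizontal axis) of each of the 69 tested genes that were assigned a role, arranged by role (vertical axis, number of genes in brackets), for the 3 comparisons of 5 against 5 mice; red and blue points passed an adjusted p of 0.05. Most points lie within 0.3 of zero, and red points outnumber blue ones in each panel.

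Length set these genes apart before any comparison. Their union exon length had a median of 8122 bases, against 3930 bases for all tested genes with annotation, and 41 of the 70 belonged to the longest quintile of tested genes. The shortest was Kdm4dl at 1187 bases and the longest Chd9 at 23148 bases. Counted by the longest single transcript, 44 belonged to the longest quintile, and by genomic span 29. In all genes, length went with direction. Of the longest quintile, 22.4% were higher and 5.82% lower under PLX3397, and 38.4% were higher and 4.9% lower after repopulation than in control, while the medians of the shortest quintile were -0.054 and -0.093. Among the 41 chromatin genes of that longest quintile, 10 were higher and 2 lower under PLX3397 (24.4% and 4.88%), and 24 were higher and 1 lower after repopulation than in control (58.5% and 2.44%). From PLX3397 to repopulation 15 of the 41 rose (36.6%), against 14.6% of all genes of that quintile.

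**Figure D2:**
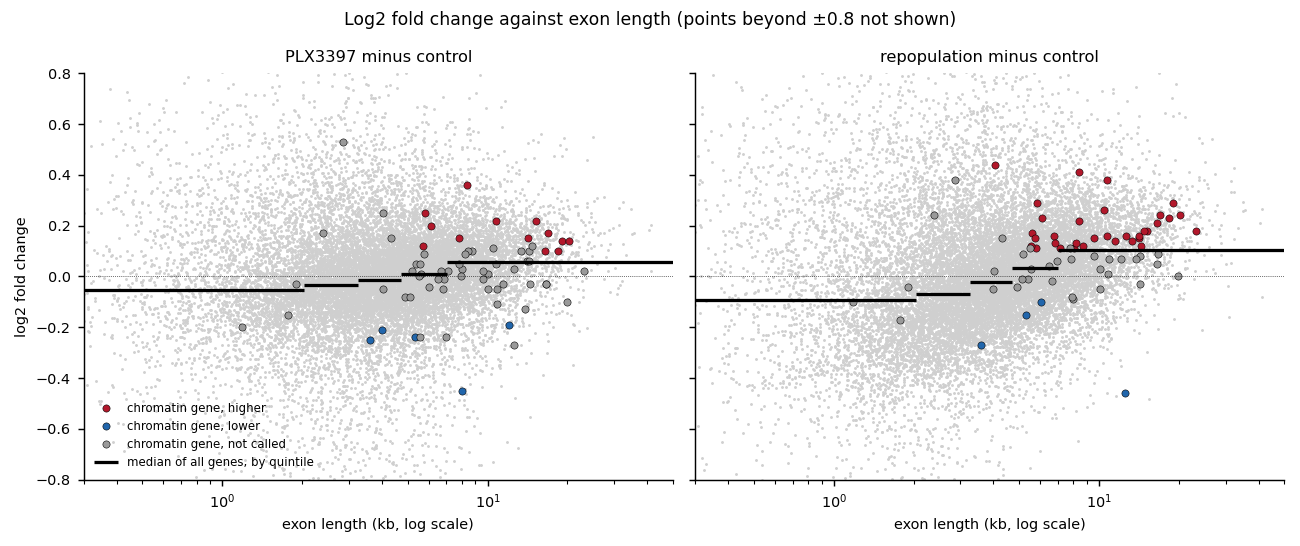
Log2 fold change (vertical axis) against union exon length in kilobases (horizontal axis, log scale) for all tested genes in grey and the chromatin genes in colour; black bars are the medians of all genes in each quintile of length. The bars climb from -0.054 to 0.056 under PLX3397 and from -0.093 to 0.105 after repopulation, and most chromatin genes lie towards the right.

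Direction went with base composition as well. The chromatin genes with a transcript GC content under 49.5%, the median of all tested genes, numbered 32, and 11 of them were higher and 0 lower under PLX3397, where 13.7% and 4.21% of all genes under that value were called. Of the 38 genes at or above it, 2 were higher and 5 lower (against 2.84% and 12.7% of all such genes), so that all genes showed the same split. Between repopulation and control the counts were 21 higher and 1 lower of the 32 (against 19.2% and 11.5%), and 12 higher and 3 lower of the 38 (against 8.77% and 19.4%). Across the 70 genes, the log2 fold change under PLX3397 fell with GC content (Pearson r = -0.54, Spearman rho = -0.59), as it did between repopulation and control (r = -0.42, rho = -0.43). The sign was opposite from PLX3397 to repopulation (r = 0.21, rho = 0.22). Over all tested genes with annotation rho was -0.31, -0.19 and 0.07, and r was -0.11, -0.15 and 0.03, in the same order. These are descriptions across genes that share the same 15 libraries. The genes of low GC content were also the longer ones, with a median of 10252 against 6635 bases of exon.

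The length trend varied between mice of one group. The median level of the longest quintile less that of the shortest, on the log2 CPM scale and relative to the control mean, was -0.061 to 0.027 in control mice and 0.192 to 0.225 in repopulation mice. PLX3397 mice spread over 0.007 to 0.176, lowest in mouse 2 and highest in mouse 5. The median of the 70 chromatin genes took the same extremes: -0.02 in PLX3397 mouse 2 and 0.074 in PLX3397 mouse 5, against -0.025 to 0.015 in control mice and 0.095 to 0.129 in repopulation mice. The 70 genes held 0.635% to 0.649% of all counts in control, 0.636% to 0.682% under PLX3397 and 0.694% to 0.699% after repopulation. Mitochondrially encoded transcripts held 4.13% to 4.43%, 3.87% to 4.48% and 3.82% to 4.02% of counts. The part of RNA quality or library preparation in the length trend was not tested.

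**Figure D3:**
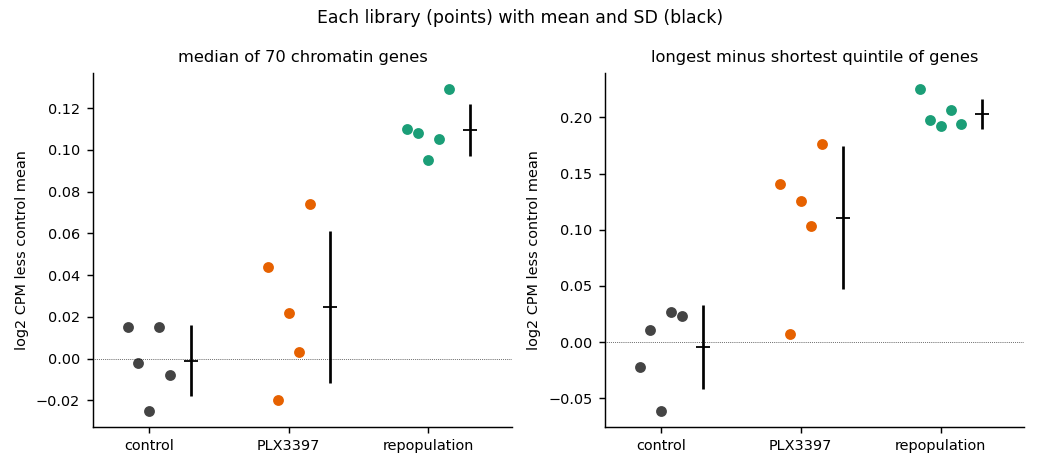
For each library (points; mean and SD in black, n = 5), the median log2 CPM of the 70 chromatin genes (left) and the gap between the longest and shortest quintile of all genes (right), both relative to the control mean. The repopulation mice lie above the other groups in both panels, and PLX3397 mice 2 and 5 mark the ends of their group.

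To measure how much of each change went with length and base composition, the test was repeated with each library's smooth trends on exon length and GC content taken out as offsets. The 13 higher and 5 lower genes under PLX3397 then became 5 and 10 (4.31% and 6.99% of all genes were called), the 20 higher genes from PLX3397 to repopulation became 10, with 1 lower (6.02% and 9.17%), and the 33 higher and 4 lower genes between repopulation and control became 12 and 8 (8.94% and 14.6%). The medians became -0.005, 0.046 and 0.033. Across the 70 genes, the log2 fold change then went with log2 exon length at Pearson r = -0.29, 0.08 and -0.23. As tested these values were 0.11, 0.17 and 0.23. Over all tested genes with annotation r was 0.06, 0.03 and 0.19 as tested. With the offsets it was 0.00 in each comparison, a value largely set by fitting the offsets to length. Spearman rho over these genes was 0.19, 0.19 and 0.29 as tested and -0.03, 0.09 and 0.03 with the offsets. Part of the rank trend from PLX3397 to repopulation thus remained. Of the 41 genes in the longest quintile, 1 was then higher and 9 lower under PLX3397 (2.44% and 22.0%, against 5.04% and 12.7% of all genes of that quintile), 8 higher and 1 lower from PLX3397 to repopulation (19.5% and 2.44%, against 9.66% and 5.4%), and 5 higher and 5 lower between repopulation and control (12.2% and 12.2%, against 14.6% and 15.3%). Taking out the length trend alone gave 4 higher and 16 lower genes under PLX3397 (5.49% and 8.85% of all genes were called), 14 and 0 from PLX3397 to repopulation (6.46% and 9.11%), and 12 and 9 between repopulation and control (8.97% and 14.7%). With GC content and the length of the longest transcript, a measure added after the data had been seen, the counts were 4 and 10 (4.44% and 6.93%), 9 and 1 (5.65% and 8.66%), and 14 and 9 (8.35% and 14%). Calls made with and without the offsets numbered 3 higher (Kdm4c, Kdm6a and Smarcal1) and 3 lower (Arid3b, Kmt5a and Setd1b) under PLX3397. From PLX3397 to repopulation they were Arid1a, Arid3b, Arid4a, Chd6, Chd9, Kdm2a, Kmt2e, Setd1a, Setd1b and Setd2, which all rose. Against control, the repopulation group had 11 higher genes of this kind (Chd3, Chd6, Kdm4c, Kdm6a, Kmt2e, Setd1a, Setd2, Setdb2, Smarca1, Smarcal1 and Smarcc2) and all 4 lower genes (Arid5a, Kmt5a, Setd3 and Smarcd2). Values with the length and GC offsets together are given below as length-adjusted, so this adjustment does not tell length from GC content. For example, Setd2 and Kmt5c kept their calls under PLX3397 with length offsets alone (edgeR, adjusted p = 0.0394 and 0.0424). With GC content added they did not (adjusted p = 0.125 and 0.256). Setd1a between repopulation and control went the other way (adjusted p = 0.134 with length alone and 0.03 with both). Fits that left out a library were run without offsets, so they bear on the calls as tested and not on length-adjusted values.

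**Figure D4:**
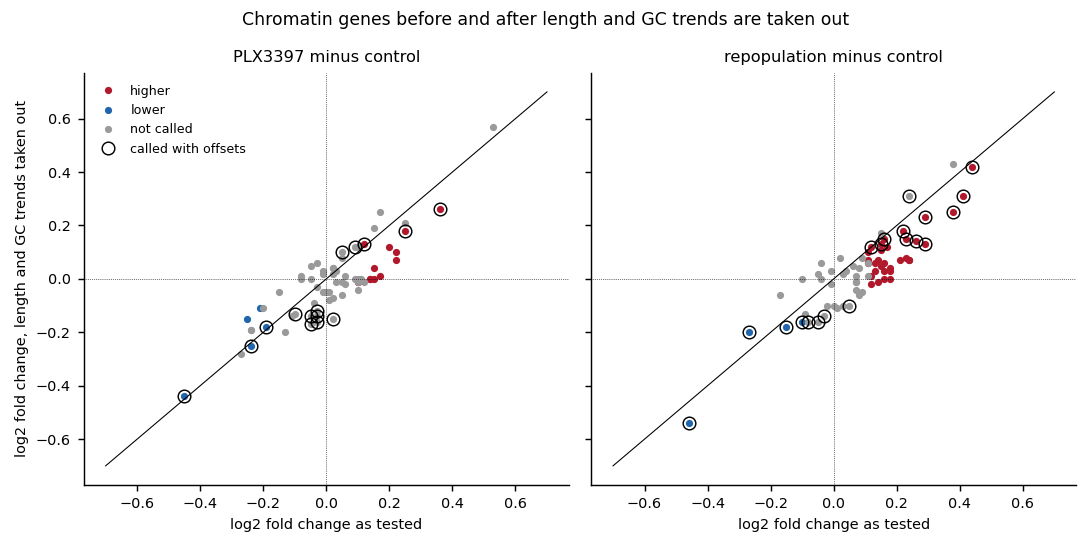
Log2 fold change of each of the 70 genes as tested (horizontal axis) and with length and GC trends taken out (vertical axis); colours show the call as tested, rings the calls made with the offsets, and the line marks equal values. In the right panel most red points drop below the line and 12 genes on the higher side keep or gain a ring.

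The promoters of these genes could be compared with those of other genes in RefSeq (GRCm38.p6), where 53 of the 71 symbols matched. Windows from 250 bases before to 50 after the transcription start had a median GC content of 63.7%, against 52.7% over all promoters. The GC box (GGGCGG, or CCGCCC on the other strand) was present in 39 of the 53 genes (73.6%), against 38.2% of all 27025 genes. The ETS core (CGGAAG or CTTCCG) was present in 21 (39.6%, against 18.8%), the CCAAT box (CCAAT or ATTGG) in 22 (41.5%, against 41.1%) and the E box CACGTG in 2 (3.77%, against 8.09%). A match is a run of letters and no measured binding site. The 100 bases before the start are shown, 5′ to 3′ on the strand of the gene, for Kdm6a, Setd2 and Chd6, which were higher in both treated groups than in control, and for Kmt5a, which was lower in both. Capitals mark GC boxes. Setd2 has 3, of which 2 overlap, Kmt5a has 2, Kdm6a has 1 and Chd6 has 0. The windows lie at chrX:18162475-18162574 (plus strand), chr9:110532497-110532596 (plus), chr2:161109087-161109186 (minus) and chr5:124439830-124439929 (plus), in that order of genes.
Kdm6a: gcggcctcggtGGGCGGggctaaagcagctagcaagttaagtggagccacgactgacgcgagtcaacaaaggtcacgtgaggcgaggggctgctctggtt
Setd2: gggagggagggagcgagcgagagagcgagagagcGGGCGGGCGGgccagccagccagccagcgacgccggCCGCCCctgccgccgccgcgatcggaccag
Chd6: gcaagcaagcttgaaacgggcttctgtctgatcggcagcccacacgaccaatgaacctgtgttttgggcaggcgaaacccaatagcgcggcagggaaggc
Kmt5a: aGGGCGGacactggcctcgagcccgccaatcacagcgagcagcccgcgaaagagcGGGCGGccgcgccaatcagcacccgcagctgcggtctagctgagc

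The 8 genes listed with the writers of H3K4 methylation include Kmt2e, a SET-domain protein that binds H3K4me3. Their most frequent call as tested was a rise from PLX3397 to repopulation, in 6 of 8 (75%, against 7.61% of all genes). The median log2 fold change of the 8 was 0.14 in that comparison. Length-adjusted, 3 of the 8 rose (37.5%, against 6.02%), and 4 were lower under PLX3397 (50%, against 6.99%), of which 1 was lower as tested. All 4 belong to the longest quintile, where 12.7% of all genes were lower under PLX3397 with the same offsets. Setd1b, the catalytic subunit of a COMPASS complex that trimethylates H3K4 at promoters, fell under PLX3397 and rose again. It stood at 54.5, 61.1, 55.1, 59.6 and 56.4 CPM in control mice, at 50.8, 48.5, 48.8, 51.5 and 51.1 CPM in PLX3397 mice and at 60.3, 61.6, 58.0, 58.7 and 62.8 CPM in repopulation mice. All 5 PLX3397 mice lay below every mouse of the other groups, which overlapped each other. The log2 fold change of Setd1b was -0.19 ± 0.04 (SE) under PLX3397 (edgeR, adjusted p = 0.00189) and 0.27 ± 0.04 from PLX3397 to repopulation (adjusted p = 4.66e-05). Length-adjusted, the Setd1b changes were -0.18 and 0.20 (adjusted p = 0.00408 and 0.00157 in edgeR). Both calls as tested held whichever library was left out.

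Setd1a, the paralog of Setd1b in the same kind of complex, stood at 32.9, 38.1, 35.9, 36.7 and 33.7 CPM in control, at 33.4, 34.6, 33.8, 34.4 and 34.7 CPM under PLX3397 and at 39.2, 38.7, 44.1, 37.4 and 38.4 CPM after repopulation. Every repopulation mouse lay above every PLX3397 mouse, and control overlapped both. Setd1a rose by 0.21 ± 0.05 from PLX3397 to repopulation (adjusted p = 0.00384, length-adjusted 0.15 with adjusted p = 0.0408 in edgeR) and was 0.16 ± 0.05 higher than control (adjusted p = 0.0156, length-adjusted 0.15 with adjusted p = 0.03). The latter call ended without repopulation mouse 3 (adjusted p = 0.0801) and without control mouse 1. An overlapping gene on the same strand and another on the opposite strand make the Setd1a counts uncertain, since the use of strand in counting is not given in the sources used here.

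Kmt2c, which places monomethyl H3K4 at enhancers, was higher in each comparison. Its levels were 124, 117, 116, 121 and 121 CPM in control, 132, 126, 129, 134 and 139 CPM under PLX3397 and 141, 142, 134, 143 and 147 CPM after repopulation. Control lay below both other groups without overlap, and those overlapped each other. The log2 fold change of Kmt2c was 0.14 ± 0.03 under PLX3397 (adjusted p = 0.00712), 0.10 ± 0.03 from PLX3397 to repopulation (adjusted p = 0.0425) and 0.24 ± 0.03 between repopulation and control (adjusted p = 1.49e-05, all in edgeR). At 20291 bases of exon Kmt2c is among the longest of the 70 genes, and length-adjusted its changes against control were 0.00 and 0.07 (adjusted p = 0.975 and 0.0799) and the rise between them 0.08 (adjusted p = 0.0932). That middle call also ended when any of 12 of the 15 libraries was left out, with adjusted p up to 0.127 without PLX3397 mouse 2.

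Unlike Kmt2c, none of the other genes of this list was called in every comparison. Kmt2e, a SET-domain protein that binds H3K4me3 and whose exons overlap those of Srpk2 on the other strand, rose by 0.16 from PLX3397 to repopulation and was 0.26 higher than control (edgeR, adjusted p = 0.0125 and 5.45e-05), with length-adjusted values of 0.14 and 0.14 (adjusted p = 0.0145 and 0.0089). Kmt2b rose by 0.16 and was 0.15 higher than control (adjusted p = 0.00637 and 0.00519), but neither length-adjusted value passed the test (adjusted p = 0.139 and 0.0519). Kmt2a, the MLL1 enzyme, rose by 0.11 from PLX3397 to repopulation (adjusted p = 0.0254), a call that ended on leaving out any of 6 libraries and with the length adjustment (0.07, adjusted p = 0.115). Kmt2d, the partner enzyme of Kmt2c at enhancers, and Setd7, a monomethyltransferase of H3K4 and other proteins, were called in no comparison, with log2 fold changes of -0.10 and -0.05 under PLX3397. With the length adjustment, Kmt2a, Kmt2d and Setd7 were lower under PLX3397 (-0.12, -0.13 and -0.14, adjusted p = 0.0117, 0.0244 and 0.033).

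Setd2, the enzyme that trimethylates H3K36 behind RNA polymerase II, was higher in all 3 comparisons. Control mice held 80.2, 87.3, 85.6, 86.8 and 85.9 CPM, PLX3397 mice 91.5, 89.7, 104, 98.7 and 112 CPM, and repopulation mice 106, 114, 112, 108 and 112 CPM. All control mice lay below all others, while PLX3397 mouse 5 lay within the repopulation range. Setd2 was higher by 0.22 ± 0.05 under PLX3397 (adjusted p = 0.00201), by 0.16 ± 0.05 from PLX3397 to repopulation (adjusted p = 0.0219) and by 0.38 ± 0.05 between repopulation and control (adjusted p = 3.62e-06, edgeR). That last difference amounts to 29.8% and was 0.25 when length-adjusted (adjusted p = 0.000145), whereas the first was 0.10 (adjusted p = 0.125) and the second 0.15 (adjusted p = 0.0177). The rise from PLX3397 to repopulation was not called without PLX3397 mouse 1, PLX3397 mouse 2, repopulation mouse 2 or repopulation mouse 5, with adjusted p up to 0.0814.

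Setd5, a SET-domain protein linked to intellectual disability, was 0.10 higher under PLX3397 (adjusted p = 0.0497), rose by 0.13 to repopulation (adjusted p = 0.0169) and ended 0.23 above control (adjusted p = 3.55e-05, edgeR). Its first call ended on leaving out any of 14 libraries, its second without PLX3397 mouse 4 (adjusted p = 0.0543), and length-adjusted the 3 values were -0.01, 0.09 and 0.08 (adjusted p = 0.947, 0.0819 and 0.0799). Setd3, first described as an H3K36 enzyme and since known as the actin histidine methyltransferase, moved the other way. It stood at 152, 160, 155, 154 and 142 CPM in control, at 154, 150, 146, 146 and 147 CPM under PLX3397 and at 146, 143, 142, 139 and 144 CPM after repopulation. Control mouse 5 lay among the repopulation mice, so those groups overlapped. Setd3 was 0.10 ± 0.03 lower after repopulation than in control, a log2 fold change of -0.10 (edgeR, adjusted p = 0.027, length-adjusted -0.16 with adjusted p = 0.00106). The call as tested was lost without control mouse 2, control mouse 3 or repopulation mouse 4 (adjusted p up to 0.0885).

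The writers of H4K20 methylation did not move together. Kmt5a, the only known monomethyltransferase of H4K20, stood at 49.9, 44.1, 43.7, 42.6 and 49.1 CPM in control, at 40.1, 35.2, 40.0, 38.8 and 40.2 CPM under PLX3397 and at 40.8, 40.0, 41.8, 44.5 and 39.4 CPM after repopulation. All PLX3397 mice lay below all control mice, and repopulation mice overlapped both groups. Kmt5a fell by 0.24 ± 0.05 on the log2 scale under PLX3397 (log2 fold change -0.24, adjusted p = 0.00189; length-adjusted -0.25 with adjusted p = 0.00152). After repopulation it was still below control, at -0.15 ± 0.05 (adjusted p = 0.0256, edgeR; length-adjusted -0.18 with adjusted p = 0.0108), and this call ended on leaving out any of 5 libraries, with adjusted p up to 0.0833 without control mouse 1. The change from PLX3397 to repopulation, 0.09 ± 0.05, was not called (adjusted p = 0.287).

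Kmt5b and Kmt5c, which extend the mark to di- and trimethyl H4K20, differed from each other. Kmt5c, of 60.0% GC, was lower under PLX3397 (-0.21, adjusted p = 0.0206 in edgeR), a call that ended without control mouse 1 (adjusted p = 0.0845) or PLX3397 mouse 3 and with the length adjustment (-0.11, adjusted p = 0.256). Kmt5b was 0.18 higher after repopulation than in control (adjusted p = 0.00239), and 0.04 when length-adjusted (adjusted p = 0.513). Of the H3K9 writers, Setdb1, which silences retroelements and whose exons overlap those of Cers2 on the other strand, rose by 0.14 from PLX3397 to repopulation and was 0.13 above control (adjusted p = 0.0231 and 0.0179). Neither Setdb1 call held with the length adjustment (adjusted p = 0.051 and 0.262) or without repopulation mouse 1 (adjusted p = 0.0857 and 0.0699) or repopulation mouse 3. Setdb2 was 0.44 ± 0.11 higher after repopulation than in control, from 4.27 to 5.77 CPM on average (adjusted p = 0.00341, length-adjusted 0.42 with adjusted p = 0.00558). The other SET-domain proteins, Setd4 and Setd6, were called in no comparison, with log2 fold changes between -0.06 and 0.05.

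The erasers of H3K27 methylation included the gene with the smallest adjusted p of the 70 under PLX3397. Kdm6a, the X-linked UTX demethylase and a subunit of the Kmt2c and Kmt2d complexes, stood at 32.3, 31.6, 30.7, 32.4 and 30.0 CPM in control, at 36.5, 40.3, 39.6, 40.6 and 45.0 CPM under PLX3397 and at 39.3, 42.3, 41.6, 39.6 and 46.3 CPM after repopulation. Both treated groups lay wholly above control and overlapped each other. Kdm6a was higher by 0.36 ± 0.05 under PLX3397, or 28.6% (adjusted p = 2.12e-05), and by 0.41 ± 0.05 after repopulation, or 33.3% (adjusted p = 3.92e-06, edgeR). Length-adjusted values were 0.26 and 0.31 (adjusted p = 0.00136 and 0.000131). Every fit that left out a library kept both calls as tested. From PLX3397 to repopulation Kdm6a changed by 0.05 ± 0.05, which was not called (adjusted p = 0.567). Its Y-linked copy Uty, at 15.6 CPM in control, was higher by 0.20 and 0.16 (adjusted p = 0.015 and 0.0374), but by 0.07 and 0.02 with the length adjustment (adjusted p = 0.458 and 0.806). Reads may be split between such X and Y copies.

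Kdm6b, the JMJD3 demethylase that responds to inflammatory signals, rose by 0.30 ± 0.09 from PLX3397 to repopulation (edgeR, adjusted p = 0.0304), from 27.5 to 33.9 CPM on average. The log2 fold change of Kdm6b under PLX3397, -0.24, did not pass the test (adjusted p = 0.0792). Its call ended on leaving out any of 7 libraries, with adjusted p up to 0.0856, and with the length adjustment (0.25, adjusted p = 0.0532).

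Of the 6 erasers of H3K4 methylation, Kdm5d, the Y-linked member of the KDM5 family, was higher in both treated groups. Levels of Kdm5d were 40.8, 34.5, 35.4, 34.9 and 34.9 CPM in control, 39.7, 40.3, 39.6, 44.1 and 47.0 CPM under PLX3397 and 42.0, 40.6, 41.8, 38.8 and 42.3 CPM after repopulation. Control mouse 1 lay within the range of both treated groups, while the other 4 control mice lay below them. Kdm5d was higher by 0.22 ± 0.05 under PLX3397 (adjusted p = 0.00637) and by 0.18 ± 0.05 after repopulation (adjusted p = 0.0119, edgeR). Length-adjusted, these were 0.07 and 0.03 (adjusted p = 0.419 and 0.777).

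Kdm5c, the X-linked copy of Kdm5d and a gene of X-linked intellectual disability, stood at 75.8, 70.8, 70.7, 66.0 and 73.0 CPM in control, at 75.8, 68.4, 70.8, 71.7 and 74.0 CPM under PLX3397 and at 79.4, 74.9, 74.9, 78.9 and 76.2 CPM after repopulation. The 3 groups overlapped. Kdm5c was 0.11 ± 0.04 higher after repopulation than in control (edgeR, adjusted p = 0.0455, length-adjusted 0.07 with adjusted p = 0.187), and 12 of the 15 fits that left out a library lost the call, with adjusted p up to 0.158 without control mouse 4. Kdm5a, whose exons overlap those of Ccdc77 on the other strand, was higher by 0.15 and 0.16 against control (adjusted p = 0.0176 and 0.00567), and by 0.00 and 0.00 when length-adjusted (adjusted p = 0.959 and 0.944). Its first call also ended without PLX3397 mouse 5 (adjusted p = 0.0666). Kdm1a and Kdm1b, the LSD1 and LSD2 amine oxidases, and Kdm5b were called in no comparison. With the length adjustment Kdm5b was lower than control in both treated groups (-0.16 and -0.10, adjusted p = 0.00281 and 0.0245).

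Among 10 erasers of H3K9 and H3K36 methylation, Kdm4c, which removes trimethyl H3K9 and H3K36, was the only one called under PLX3397. That is 10.0% higher, near the 8.19% of all genes. Length-adjusted, 2 of the 10 were higher and 2 lower there (20.0% each, against 4.31% and 6.99% of all genes). Kdm4c stood at 27, 25.3, 24.2, 27.6 and 26.8 CPM in control, at 28.2, 32.6, 32.2, 29.0 and 33.5 CPM under PLX3397 and at 34.4, 33.4, 33.0, 30.7 and 28.8 CPM after repopulation. Control lay below both other groups without overlap. Kdm4c was higher by 0.25 ± 0.06 under PLX3397 (adjusted p = 0.0036) and by 0.29 ± 0.06 after repopulation (adjusted p = 0.000352, edgeR), with length-adjusted values of 0.18 and 0.23 (adjusted p = 0.0307 and 0.00321). No single library decided either call as tested.

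Kdm2a, an H3K36 demethylase that binds CpG islands, rose by 0.15 from PLX3397 to repopulation (adjusted p = 0.00523, length-adjusted 0.12 with adjusted p = 0.00808). It was 0.12 above control after repopulation (adjusted p = 0.0127, edgeR), which ended without control mouse 3 (adjusted p = 0.0627) and with the length adjustment (-0.02, adjusted p = 0.694). Kdm3a, Kdm3b and Kdm4a were higher after repopulation than in control by 0.13, 0.15 and 0.11 (adjusted p = 0.0389, 0.00288 and 0.0391), and the calls of Kdm3a and Kdm4a ended on leaving out any of 7 and 8 libraries. None of these 3 passed with the length adjustment (adjusted p = 0.67, 0.37 and 0.0607). Kdm2b, Kdm4b, Kdm4d, Kdm7a and Kdm8 were called in no comparison as tested. With the length adjustment, Kdm2a and Kdm7a were lower under PLX3397 (-0.14 and -0.17, edgeR, adjusted p = 0.00314 and 0.0144). Kdm4a was then higher there (0.12, adjusted p = 0.0436), and Kdm8 was higher after repopulation than in control (0.31, adjusted p = 0.0259). Kdm4d had the highest log2 fold change of all 70 genes under PLX3397, 0.53 ± 0.22, from 1.13 to 1.59 CPM, and did not pass the test (adjusted p = 0.0955).

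The shortest tested gene, Kdm4dl, showed how little such low levels can resolve. It stood at 0.41, 0.39, 0.343, 0.163 and 0.551 CPM in control, at 0.249, 0.388, 0.244, 0.41 and 0.344 CPM under PLX3397 and at 0.371, 0.441, 0.334, 0.178 and 0.418 CPM after repopulation. All groups overlapped, and the log2 fold changes of Kdm4dl had standard errors of 0.33, 0.34 and 0.32. No call was made for it.

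Of 10 CHD remodellers, 2 were higher under PLX3397, 4 from PLX3397 to repopulation and 6 between repopulation and control (20.0%, 40.0% and 60.0%, against 8.19%, 7.61% and 13.9% of all genes), and 0 were lower. Length-adjusted, 0, 2 and 2 were higher (against 4.31%, 6.02% and 8.94% of all genes), and 1, Chd9, was lower under PLX3397. Chd6, a DNA-dependent ATPase of the CHD family, stood at 114, 121, 123, 124 and 113 CPM in control, at 130, 127, 127, 128 and 142 CPM under PLX3397 and at 141, 149, 144, 146 and 150 CPM after repopulation. The groups stepped upward, and PLX3397 mouse 5 alone reached into the repopulation range. Chd6 was higher by 0.14 ± 0.04 under PLX3397 (adjusted p = 0.0135), by 0.16 ± 0.04 from PLX3397 to repopulation (adjusted p = 0.00405) and by 0.29 ± 0.04 between repopulation and control (adjusted p = 3.89e-06, edgeR). Length-adjusted, the first was 0.00 (adjusted p = 0.957), and the others 0.13 and 0.13 (adjusted p = 0.00836 and 0.0046). The first was also lost without PLX3397 mouse 5 (adjusted p = 0.0531).

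Chd9, the longest gene of the set, stood at 96.5, 93.3, 94.5, 88.2 and 92.8 CPM in control, at 97.4, 85.5, 95.0, 93.1 and 99.5 CPM under PLX3397 and at 105, 105, 105, 108 and 105 CPM after repopulation. Repopulation mice lay above all others, and the other groups overlapped. Chd9 rose by 0.17 ± 0.04 from PLX3397 to repopulation (adjusted p = 0.00302, length-adjusted 0.15 with adjusted p = 0.00268 in edgeR). Its excess over control after repopulation, 0.18 ± 0.04 (adjusted p = 0.000672), was 0.00 with the length adjustment (adjusted p = 0.963), and the 0.02 under PLX3397 turned to -0.15 (adjusted p = 0.00309).

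Chd3, the NuRD helicase with the highest level per length, stood at 649, 631, 654, 649 and 605 CPM in control, at 652, 702, 645, 620 and 788 CPM under PLX3397 and at 718, 739, 764, 735 and 750 CPM after repopulation. Repopulation mice lay above all control mice, and PLX3397 mice spanned both groups. Chd3 was 0.22 ± 0.05 higher after repopulation than in control (edgeR, adjusted p = 0.00114, length-adjusted 0.18 with adjusted p = 0.0114). Chd8, an autism-associated CHD helicase, was higher by 0.10, 0.11 and 0.21 in the 3 comparisons (adjusted p = 0.0417, 0.0217 and 3.78e-05). Its first call ended on leaving out any of 11 libraries, its second without PLX3397 mouse 2, PLX3397 mouse 4 or repopulation mouse 1, and length-adjusted the 3 values were -0.01, 0.08 and 0.07 (adjusted p = 0.931, 0.0986 and 0.103). Chd1 and Chd4 were 0.12 and 0.11 higher after repopulation than in control (adjusted p = 0.0257 and 0.0239), and Chd7, the CHARGE syndrome gene, rose by 0.20 from PLX3397 to repopulation (adjusted p = 0.0419). Leaving out any of 6, 5 and 8 libraries ended these 3 calls, and none passed with the length adjustment (adjusted p = 0.863, 0.206 and 0.136). Chd1l, Chd2 and Chd5 were called in no comparison.

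**Figure D5:**
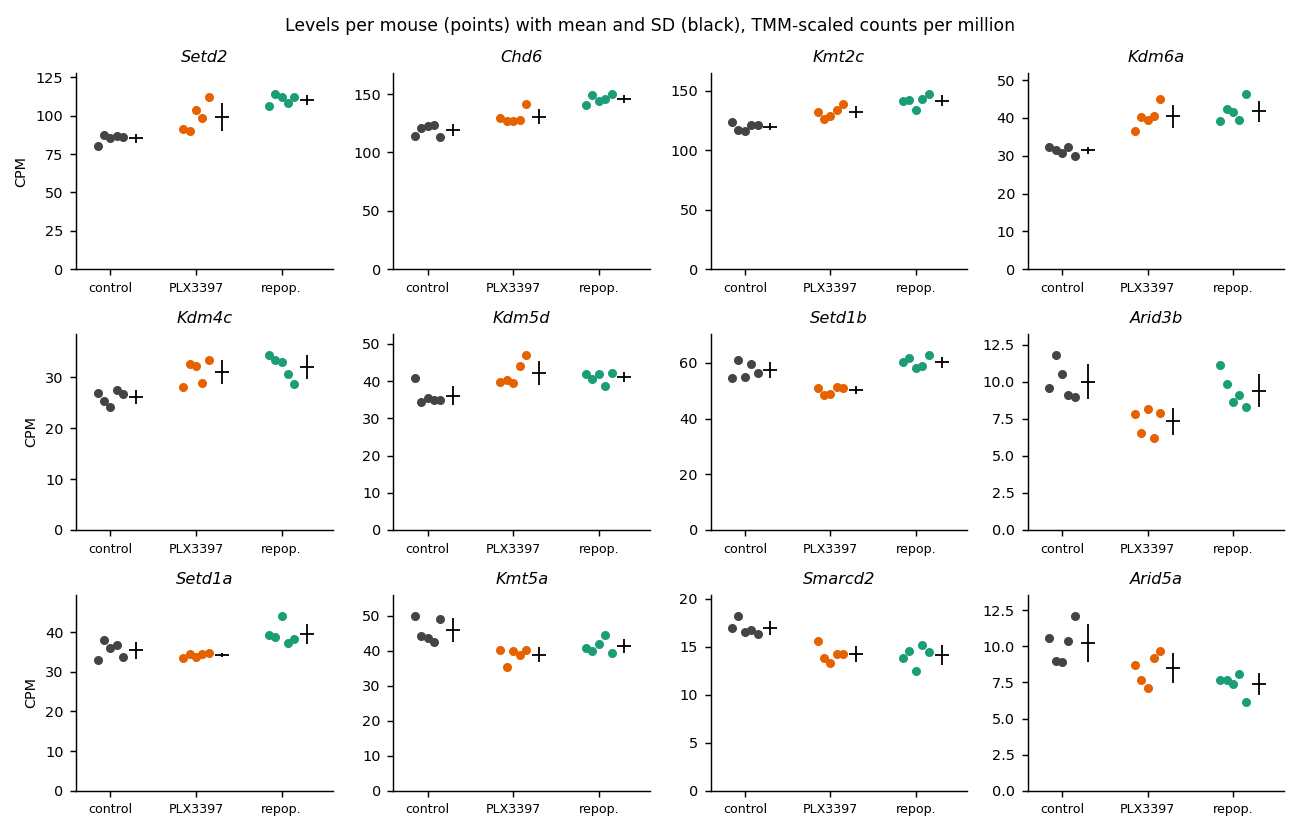
TMM-scaled counts per library total (CPM; vertical axes, from 0) of 12 genes in each of the 15 mice (points), with the mean and SD of 5 mice in black. Kdm6a, Kdm4c, Kmt2c, Setd2 and Chd6 lie higher in both treated groups, Setd1b and Arid3b dip under PLX3397 alone, and Smarcd2 lies lower in both.

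SWI/SNF ATPases Smarca2 (BRM) and Smarca4 (BRG1), one of which drives each complex, were called in no comparison, with log2 fold changes between -0.08 and 0.06. With the length adjustment Smarca2 was lower after repopulation than in control (-0.14, adjusted p = 0.0236). Among the 10 core and accessory subunits, Arid1a, the large DNA-binding subunit of the BAF form, stood at 167, 179, 175, 172 and 168 CPM in control, at 175, 164, 162, 164 and 176 CPM under PLX3397 and at 193, 188, 186, 192 and 188 CPM after repopulation. Repopulation mice lay above all mice of the other groups. Arid1a rose by 0.17 ± 0.03 from PLX3397 to repopulation (adjusted p = 0.000724, length-adjusted 0.10 with adjusted p = 0.0151) and was 0.14 ± 0.03 above control (adjusted p = 0.00239, edgeR; length-adjusted 0.07 with adjusted p = 0.065). Its paralog Arid1b rose by 0.13 and was 0.16 above control (adjusted p = 0.0123 and 0.0014), the first call ending without PLX3397 mouse 4 (adjusted p = 0.0537), and Arid2, of the PBAF form, was 0.16 above control (adjusted p = 0.00397). Neither gene passed with the length adjustment: adjusted p was 0.149 and 0.204 for Arid1b and 0.561 for Arid2.

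Smarcc2 stood at 325, 353, 338, 353 and 351 CPM in control, at 371, 348, 358, 350 and 359 CPM under PLX3397 and at 371, 368, 383, 376 and 375 CPM after repopulation. Repopulation mice lay above control without overlap. Smarcc2 was 0.12 ± 0.03 higher after repopulation than in control (adjusted p = 0.00329, length-adjusted 0.12 with adjusted p = 0.00147 in edgeR). With the length adjustment alone it was also called higher under PLX3397 (0.101, adjusted p = 0.0147). Smarcd2, a BAF60 subunit known from granulocyte development, was lower in both treated groups. It stood at 16.9, 18.2, 16.5, 16.7 and 16.3 CPM in control, at 15.6, 13.8, 13.3, 14.2 and 14.2 CPM under PLX3397 and at 13.8, 14.6, 12.5, 15.2 and 14.4 CPM after repopulation. Every treated mouse lay below every control mouse. The log2 fold change of Smarcd2 was -0.25 ± 0.06 under PLX3397 (adjusted p = 0.00668, length-adjusted -0.15 with adjusted p = 0.101) and -0.27 ± 0.06 after repopulation (adjusted p = 0.00197, edgeR; length-adjusted -0.20 with adjusted p = 0.0151). Smarcb1, Smarcc1, Smarcd1, Smarcd3 and Smarce1 were called in no comparison, and Smarcb1 was lower with the length adjustment from PLX3397 to repopulation and between repopulation and control (-0.11 and -0.16, adjusted p = 0.0497 and 0.00409).

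The ISWI ATPases and related helicases were called against control and not between PLX3397 and repopulation. Smarca1 (SNF2L) was higher by 0.20 and 0.23 under PLX3397 and after repopulation (adjusted p = 0.0134 and 0.00265), with length-adjusted values of 0.12 and 0.15 (adjusted p = 0.131 and 0.0265). Smarca5 (SNF2H), the catalytic subunit of most ISWI complexes, was 0.15 higher under PLX3397 (adjusted p = 0.0218, length-adjusted 0.04 with adjusted p = 0.54), and its call ended without control mouse 2 (adjusted p = 0.0769), control mouse 3 or PLX3397 mouse 3. Smarcal1, an annealing helicase of stalled replication forks, was higher by 0.12 and 0.15 (adjusted p = 0.0383 and 0.00712), with length-adjusted values of 0.13 and 0.13 (adjusted p = 0.0297 and 0.0231), and leaving out any of 6 libraries ended the first call. Smarcad1 was 0.14 higher after repopulation than in control (edgeR, adjusted p = 0.031), which any of 6 libraries also ended, and which was -0.01 with the length adjustment (adjusted p = 0.904).

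Of the other ARID proteins, Arid3b, a DNA-binding factor related to Arid3a, dipped under PLX3397. It stood at 9.59, 11.8, 10.5, 9.11 and 8.98 CPM in control, at 7.83, 6.52, 8.15, 6.22 and 7.87 CPM under PLX3397 and at 11.1, 9.84, 8.64, 9.09 and 8.29 CPM after repopulation. PLX3397 mice lay below all others, and control and repopulation overlapped. The log2 fold change of Arid3b was -0.45 ± 0.10 under PLX3397 (adjusted p = 0.00205) and 0.36 ± 0.10 from PLX3397 to repopulation (adjusted p = 0.0123, edgeR). Length-adjusted values were -0.44 and 0.31 (adjusted p = 0.00344 and 0.033). As tested, the rise was not called without repopulation mouse 1 (adjusted p = 0.0516). Arid3b and Setd1b thus went down and up as did the summed microglial, oligodendrocyte precursor and endothelial markers given above and those of pericytes and smooth muscle (147 to 163, 124 to 139 and 156 to 163 CPM, with 1 of 6 lower under PLX3397 and 3 of 6 higher from PLX3397 to repopulation). The part of these cell types in both changes was not tested. Arid3a rose by 0.26 from PLX3397 to repopulation (adjusted p = 0.044), a call that any of 12 libraries ended and that did not hold with the length adjustment (adjusted p = 0.107).

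Arid5a, an RNA-binding protein that stabilises inflammatory transcripts, was lower after repopulation. Its levels were 10.6, 8.98, 8.91, 10.4 and 12.1 CPM in control, 8.72, 7.69, 7.14, 9.22 and 9.64 CPM under PLX3397 and 7.69, 7.67, 7.38, 8.06 and 6.13 CPM after repopulation. Repopulation mice lay below all control mice, and PLX3397 mice overlapped both. Arid5a stood at -0.46 ± 0.10 between repopulation and control (adjusted p = 0.000801, length-adjusted -0.54 with adjusted p = 0.000215 in edgeR), or -27.5%, and the -0.27 ± 0.10 under PLX3397 was not called (adjusted p = 0.0621). Arid4a and Arid4b, subunits of the Sin3 deacetylase complex, were 0.17 and 0.24 higher after repopulation than in control (adjusted p = 0.00975 and 0.000264), with length-adjusted values of 0.12 and 0.07 (adjusted p = 0.0902 and 0.256). Arid4a had risen by 0.16 from PLX3397 (adjusted p = 0.0259, length-adjusted 0.16 with adjusted p = 0.0233), a call that any of 5 libraries ended, and Arid4b, whose exons overlap those of Ggps1 on the other strand, was already 0.17 higher under PLX3397 (adjusted p = 0.0108, length-adjusted 0.01 with adjusted p = 0.95). Arid3c and Arid5b were not called, and Arid5b was lower after repopulation with the length adjustment (-0.16, adjusted p = 0.00993).

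Across the 70 genes, 45 were called in at least 1 comparison (64.3%, against 38.5% of all tested genes) and 25 in none. Chd6, Chd8, Kmt2c, Setd2 and Setd5 were higher in all 3. A further 7 (Arid4b, Kdm4c, Kdm5a, Kdm5d, Kdm6a, Smarca1 and Smarcal1) were higher in both treated groups than in control with no call between the treated groups. In 9 (Arid1a, Arid1b, Arid4a, Chd9, Kdm2a, Kmt2b, Kmt2e, Setd1a and Setdb1) the repopulation group was higher than both others. The share of all tested genes with each of these patterns was not counted, so the patterns are descriptions of these genes alone. Of the calls as tested, 2 higher (Kdm4c and Kdm6a) and 3 lower genes (Arid3b, Kmt5a and Setd1b) under PLX3397 were kept in all 15 fits that left out a library and in the 3 offset fits given above. From PLX3397 to repopulation the same held for 6 (Arid1a, Chd6, Chd9, Kdm2a, Kmt2e and Setd1b). After repopulation, against control, it held for 10 higher genes (Chd3, Chd6, Kdm4c, Kdm6a, Kmt2e, Setd2, Setdb2, Smarca1, Smarcal1 and Smarcc2) and 2 lower (Arid5a and Smarcd2). How many of all tested genes kept their calls in the same fits was not counted, so these counts have no background.

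Genes that work with these enzymes were read from 7 lists of complexes and related enzymes, 103 genes of which 96 were tested. Of the 96, 11 were higher and 8 lower under PLX3397 (11.5% and 8.33%, close to the 8.19% and 8.35% of all genes). Next, 13 were higher and 6 lower from PLX3397 to repopulation (13.5% and 6.25%, against 7.61% and 8.98%), and between repopulation and control 23 were higher and 8 lower (24.0% and 8.33%, against 13.9% and 15.2%). Length-adjusted, these counts became 3 and 9 (3.12% and 9.38%, against 4.31% and 6.99% of all genes) and 8 and 5 (8.33% and 5.21%, against 6.02% and 9.17%). In the last comparison they became 12 and 11 (12.5% and 11.5%, against 8.94% and 14.6%). The highest counts came from the INO80, SRCAP and ATRX remodellers, where 6 of 10 were higher after repopulation than in control, and from the partners of NuRD and ISWI, with 6 of 19. Length-adjusted, 3 of the 10 and 4 of the 19 were higher (30.0% and 21.1%, against 8.94% of all genes). Atrx, the X-linked remodeller that deposits histone H3.3 and whose union of exons is 21757 bases, was higher by 0.28 under PLX3397 and 0.41 after repopulation (adjusted p = 1.96e-05 and 5e-07), with length-adjusted values of 0.09 and 0.22 (adjusted p = 0.0621 and 3.2e-05). Adnp, which forms a complex with Chd4, was higher by 0.34 and 0.52 (adjusted p = 0.00783 and 5.86e-05), and by 0.31 and 0.48 when length-adjusted (adjusted p = 0.017 and 0.000203, edgeR).

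Further partners moved in either direction. Rbbp4, the histone chaperone of the Polycomb, NuRD and other complexes, fell by 0.26 from PLX3397 to repopulation and stood 0.26 below control, log2 fold changes of -0.26 and -0.26 (edgeR, adjusted p = 7.07e-06 and 8.74e-06), and -0.27 and -0.36 with the length adjustment (adjusted p = 8.55e-06 and 2.33e-06). Wdr82, the subunit that ties the Setd1a and Setd1b complexes to RNA polymerase II, changed by -0.19 and -0.21 in the same comparisons (adjusted p = 0.000374 and 6.11e-05; length-adjusted -0.20 and -0.26 with adjusted p = 8.32e-05 and 6.56e-06). Hcfc1, another subunit of those complexes, was 0.13 and 0.22 higher than control under PLX3397 and after repopulation (adjusted p = 0.00864 and 5.04e-05; length-adjusted 0.14 and 0.17 with adjusted p = 0.0011 and 0.000133). Baz1a, the partner of Smarca5 in a nucleosome-spacing complex, dipped under PLX3397 at low levels, from 4.15 to 2.96 CPM, and returned to 4.34 CPM (-0.50 and 0.56, adjusted p = 0.0181 and 0.0089; length-adjusted -0.57 and 0.55 with adjusted p = 0.0102 and 0.0108). Ash1l and Nsd1, methyltransferases of H3K36, were 0.33 and 0.20 higher after repopulation than in control (adjusted p = 1.56e-06 and 9.78e-05), and 0.17 and 0.04 when length-adjusted (adjusted p = 0.000228 and 0.291). Among 13 Polycomb genes, which write and maintain H3K27 methylation opposite to Kdm6a, 1 was higher and 0 lower under PLX3397 (7.69% higher, against 8.19% of all genes). From PLX3397 to repopulation 0 were higher and 3 lower (23.1% lower, against 8.98% of all genes). After repopulation 1 was higher and 1 lower than in control (7.69% each, against 13.9% and 15.2%). Length-adjusted, the Polycomb counts were 0 and 0 under PLX3397 (against 4.31% and 6.99% of all genes). They were 0 and 2 from PLX3397 to repopulation (15.4% lower, against 9.17%), and 0 and 3 between repopulation and control (23.1% lower, against 14.6%).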

How the data were processed

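RNA was sequenced from bulk cortex of 15 mice, 1 library per mouse. The mm10 build, STAR, DESeq, DESeq2, MultiQC and FastQC are named without roles, per the submitters' processing notes; how reads were counted, and with which annotation and strand setting, is not given in the sources used here. The deposited values are whole-number counts per gene symbol. The chromatin genes, their roles and the gene lists were chosen with earlier results of these data known. Genes were filtered with filterByExpr, leaving 18369, scaled with TMM and tested with edgeR 4.0.16 in R 4.3.3 (quasi-likelihood F test, robust dispersion, all 15 libraries in 1 fit), with Benjamini-Hochberg adjustment over all tested genes and a threshold of 0.05. The script was tested on simulated data. Totals of 23413551 to 48617851 counts limit mainly genes under 1 CPM. Exon length and transcript GC came from GENCODE M21 (GRCm38), joined by symbol for 93.3% of rows and all 71 chromatin genes; of tested genes 97.8% had both. Offsets were natural splines with 4 degrees of freedom per library, set against the mean over libraries. Exons of 25 chromatin genes overlap a gene on the other strand and those of 7 a gene on their own strand, which makes these counts uncertain. The members described per mouse were the 4 with the smallest adjusted p in each direction of each comparison among those called, the 2 with the highest level per length, the longest and the shortest, and Kdm5c, Kdm5d and Kdm6a. Of the partners, up to 2 called genes per list and comparison were eligible. Alternatives were DESeq2 1.42.0, RLE factors, no filter or a mean of 1 CPM, only the 2 groups compared, a replicate block, offsets, other length measures and leaving out each library.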

Additional observations from a re-analysis of the deposited data

Results flagged for a closer look

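Among the 63 sets of 5 mice examined, formed by the genes described per mouse and the summaries in each group, 6 held 1 mouse far from the other 4, by a gap of more than 0.71 of the whole range (Dixon's criterion). Chance gives about 1 in 20 such sets. In control mouse 1, the most deeply sequenced, Kdm5d stood at 40.8 CPM against 34.5 to 35.4 CPM in the other control mice, and Setd2 at 80.2 CPM against 85.6 to 87.3 CPM. PLX3397 mouse 5, which had the largest gap between long and short genes of its group (0.176), held Chd6 at 142 CPM against 127 to 130 CPM. In PLX3397 mouse 2, with the smallest gap (0.007), Kmt5a was at 35.2 CPM against 38.8 to 40.2 CPM. Chd9 reached 108 CPM in repopulation mouse 4 against 105 CPM in each of the others, and Setd1a 44.1 CPM in repopulation mouse 3 against 37.4 to 39.2 CPM. Leaving out these mice ended the call of Chd6 under PLX3397 (adjusted p = 0.0531 in edgeR) and that of Setd1a between repopulation and control (adjusted p = 0.0801).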

How the results depend on the processing

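With length offsets alone, 4 genes were higher and 16 lower under PLX3397 (median -0.027), and 12 and 9 between repopulation and control (0.025). With length and GC offsets the counts were 5 and 10 under PLX3397, 10 and 1 from PLX3397 to repopulation (0.046), and 12 and 8 between repopulation and control (0.033). With GC and the longest transcript in place of exon length, a choice made after seeing the data, they were 4 and 10, 9 and 1 (0.037), and 14 and 9 (0.028). Under PLX3397 Chd6 turned to -0.003 with length offsets, Chd9 to -0.139, -0.153 and -0.135 and Kmt2c to -0.005, -0.002 and -0.008 in these 3 fits. Between repopulation and control Chd9 turned to -0.003 with length and GC offsets. The cause was not tested. The share of calls that were higher among all genes fell from 49.5% to 38.1% and from 47.7% to 38.0% with length and GC offsets. The labels do not say whether replicate numbers pair the mice. Of 15 same-number pairs of libraries, 1 correlated above 0.1 (-0.131 to 0.103), and 1 of 15 libraries correlated best with its own number. Such correlations cannot exclude a pairing. With the replicate block the counts were 10 and 6, 21 and 0, and 32 and 4. With the block and both offsets they were 3 and 10 (1895 of all genes called), 11 and 0 (0.046), and 13 and 9 (0.034), and Chd9 was -0.153 and -0.002 and Kmt2c -0.002. Of the 23 calls kept in every fit without a library and in the 3 offset fits, this fit ended 1, Kdm4c under PLX3397 (0.183, adjusted p = 0.0554). Without each replicate in turn, higher counts ranged over 8 to 14, 12 to 20 and 26 to 33, lower counts over 4 to 8, 0 to 1 and 3 to 4, and medians over 0.007 to 0.034, 0.061 to 0.094 and 0.099 to 0.116; all genes called ranged over 2406 to 3131, 2357 to 3702 and 4579 to 5506. DESeq2 called 13 and 6, 22 and 0, and 35 and 4. Of all 18369 genes it called 1650 and 1627, 1500 and 1793, and 2703 and 2900. Depth limits Arid3c and Kdm4dl, with as few as 2 counts in a library.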
